A study of Rattus norvegicus with 8 samples.

Results

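Ribosome biogenesis is the making of ribosomal RNA and its assembly with proteins into the small and large ribosomal subunits, and 47 genes of this pathway were followed in the regenerating liver of rats. The genes are listed by name for their textbook roles. The list uses no measured value as a criterion, but it was drawn up with earlier results of these data known. Of the 47, 44 had a probe set that the array annotation pairs with that symbol alone, and 43 of those passed a minimum mean level of 5 log2 units over all arrays. These 43 were tested among 8690 genes that passed the same minimum, out of 18166 genes with a probe set. Dkc1 and Bysl had no such probe set, Npm1 is named here only on a probe set shared with another symbol, and Polr1e had a mean level of 4.88 log2 units and was not tested.

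The cell makes ribosomal RNA in the nucleolus, where RNA polymerase I transcribes 1 long precursor from the repeated ribosomal DNA. Small nucleolar ribonucleoproteins (snoRNPs) of the H/ACA kind turn chosen uridines of that precursor into pseudouridine, and those of the C/D kind methylate chosen riboses. A large complex called the small subunit processome folds and cuts the part that becomes the 40S subunit, and separate sets of factors mature the 60S subunit, so a cell about to grow and divide draws on all of these at once. After part of the liver is removed, the remaining hepatocytes, which are mostly at rest, enter the cell cycle, and ribosome production is part of that growth.

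The animals were male Sprague-Dawley rats fed either an ethanol diet for a long period (EtOH) or, as pair-fed controls, a carbohydrate diet (CHO). In each diet some rats received AM21, an oligonucleotide with locked nucleic acid bases that is antisense to the microRNA miR-21, and the others were untreated. AM21 was injected into the abdomen at 7.5 mg per kg, first 72 h before surgery and again just after it. Surgery was a partial hepatectomy that removed 70% of the liver: the tissue taken out gave the 0 h sample, and the remnant of the same animals gave the 24 h sample. RNA of 3 rats (AM21) or 4 rats (untreated) was pooled before each array, so the study comprises 8 arrays from 4 pools of rats, and every group is a single array. No group is labelled as a sham operation or as given a control oligonucleotide, and the animal identifiers of treated and untreated rats come from separate runs of numbers. AM21, the injection itself and the cohort cannot be told apart. Strain, sex and tissue were common to all 8 arrays.

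Levels are RMA values on a log2 scale, on which 1 unit is a doubling of signal. RMA aligns the arrays to 1 distribution, which removes any shift shared by most transcripts, so every change below is relative to the other genes. A level describes 1 probe set and is not set against the level of another gene. The summed level of the hepatocyte markers lay between 14.87 and 14.91 log2 units in all 8 arrays (12 markers named, 10 measured). That sum is set by the brightest probe sets, near the top of the arrays' range. Of the 10 tested, 0 rose and 1 fell, Cyp2e1 (-0.39 ± 0.095 log2 units, limma adjusted p 0.0256). The markers of dividing cells separated the times: their summed level lay between 8.97 and 10.22 at 0 h and between 12.19 and 13.06 at 24 h, and all 11 tested markers rose. Of the 4 tested neutrophil and monocyte markers 2 rose, of the 12 Kupffer cell and macrophage markers 1 rose and 3 fell, of the 9 stellate cell markers 2 rose and 3 fell, and of the 7 sinusoidal endothelial markers 3 fell. In whole tissue, a change in the number of cells of one type and a change in RNA per cell cannot be told apart. The part of these other cells in the results below was not tested.

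Promoters were read for the 44 members with an entry in the RefSeq promoter table of rat build GRCr8; Wdr43, Bop1 and Rrs1 were not matched. The following stretches end at the base before the annotated start and belong to the 6 members with the largest rises at 24 h, and they are shown for that reason. The ETS core lies in this stretch in 4 of the 6. Nop56 lacks it, and Nolc1 has it farther upstream, at position -141. Capitals mark CCGGAAG, the core bound by ETS family factors, read on either strand. All are written 5′ to 3′ in the direction of transcription.
Nhp2 (chr10:36377920-36378019, + strand): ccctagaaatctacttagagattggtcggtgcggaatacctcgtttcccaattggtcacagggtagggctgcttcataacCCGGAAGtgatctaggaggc
Nop58 (chr9:68614974-68615073, + strand): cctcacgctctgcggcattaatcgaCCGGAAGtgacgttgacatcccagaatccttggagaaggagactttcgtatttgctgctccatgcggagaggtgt
Nop56 (chr3:137930079-137930178, + strand): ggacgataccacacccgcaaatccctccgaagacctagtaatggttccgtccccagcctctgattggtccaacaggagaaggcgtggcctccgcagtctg
Emg1 (chr4:159203827-159203926, - strand): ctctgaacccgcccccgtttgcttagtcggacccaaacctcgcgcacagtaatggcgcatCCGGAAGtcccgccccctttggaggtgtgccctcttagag
Nolc1 (chr1:254870259-254870358, + strand): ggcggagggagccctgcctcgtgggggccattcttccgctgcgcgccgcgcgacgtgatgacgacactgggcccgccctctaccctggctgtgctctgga
Gar1 (chr2:221056750-221056849, - strand): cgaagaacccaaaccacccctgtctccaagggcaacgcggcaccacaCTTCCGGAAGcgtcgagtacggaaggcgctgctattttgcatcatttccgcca

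The ETS core was present in 21 of the 44 member promoters (47.7%), counted from 250 bases before the start to 50 bases after it, and in 19.9% of the promoters of 7279 tested genes. It was found in 9 of the 17 promoters of members that rose at 24 h (52.9%) and in 9 of the 23 of members tested and not called (39.1%). In Gar1 the core occurs on both strands in overlapping copies, at positions -53 and -50 from the start. The palindrome CACGTG, the E-box bound by MYC and related factors, was present in 13 of 44 member promoters (29.5%), against 10% of tested genes and 6.65% of all 27457 genes in the table. Members that rose held it in 2 of 17 cases (11.8%) and members not called in 9 of 23 (39.1%). Of the other fixed motifs, CCAAT was found in 13 of 44 members (29.5%, against 39.2% of tested genes), GCGCATGCG, the NRF1 motif, in 3 (6.82%, against 3.57%), and AAGATGGCG, the YY1 motif, in 0 (against 4.27%). All motifs were read on both strands and the same window, and these matches are letters in a window, not measured binding. The E-box is shown with its flanks for both members that rose and for 4 that were not called, with CACGTG in capitals.
Fbl (chr1:92597418-92597443, + strand, E-box from position 22): cgcttttttcCACGTGtgaaagcctg
Nop2 (chr4:159618994-159619015, + strand, E-box from position 39): tccccaagtgCACGTGgagcgg
Gnl3 (chr16:6219792-6219817, - strand, E-box from position -25): ttccagttcgCACGTGgcgcccgaga
Pes1 (chr14:83074286-83074311, + strand, E-box from position -50): ctaagcggggCACGTGcggtaggaag
Ltv1 (chr1:9398603-9398628, - strand, E-box from position -61): cctgtctaccCACGTGtagagctgcc
Tsr1 (chr10:60258800-60258825, + strand, E-box from position 21): ttactcggtgCACGTGggcagttaga

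The first comparison asked which members differed between the remnant 24 h after surgery and the liver taken out at surgery. At 24 h 18 of the 43 tested members were higher and 0 were lower at an adjusted p of 0.05 (limma with the pool as a block, Benjamini-Hochberg adjustment over 8690 genes), while 15.3% of all tested genes were called higher and 12.8% lower. All 3 tested proteins of the C/D snoRNP rose, as did Nhp2 and Gar1 of the H/ACA snoRNP, whereas none of the 5 tested genes of RNA polymerase I and its factors passed the test. The median change of the members was 0.30 log2 units, and that of all tested genes was 0.0088. In all 4 pools 25 of 43 members were higher at 24 h, against 26.2% of all tested genes, and for 20 of 43 every 24 h array lay above every 0 h array, against 17.4% of all tested genes. At an unadjusted p of 0.05, 22 members were higher and 1, Mphosph10, was lower. The count of 18 became 10 without the ethanol-fed untreated pool and 9 without the ethanol-fed AM21 pool, and 10 of 44 when no minimum level was asked. The share of all tested genes called higher fell too, from 15.3% to 10.1%, 9.17% and 5.65% in the same settings. The members' count was 12 without the pair-fed untreated pool and 17 without the pair-fed AM21 pool (10.1% and 11% of all tested genes), and 9 of the 18 members stayed called in all 10 alternatives: Emg1, Fbl, Gar1, Mrto4, Nhp2, Nolc1, Nop2, Nop56 and Nop58.

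**Figure D1:**
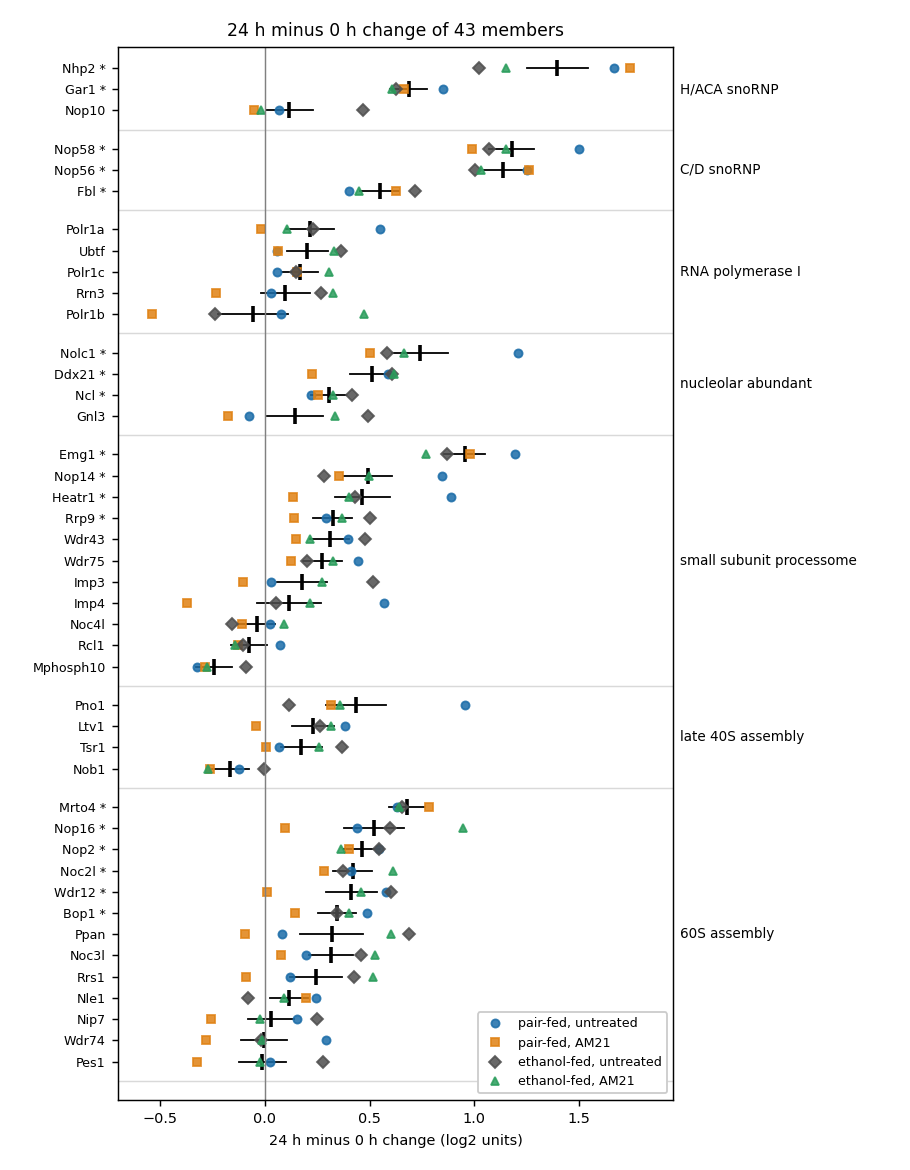
Change of each tested member in each pool (24 h array minus 0 h array, log2 units, coloured points) with the fitted change and its standard error (black tick and line), grouped by class; an asterisk marks the 18 members with an adjusted p under 0.05. All 3 C/D snoRNP proteins lie to the right of 0 in every pool, while the RNA polymerase I class straddles 0.

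The H/ACA snoRNP is built from the pseudouridine synthase Dkc1 and the small proteins Nhp2, Nop10 and Gar1, and it also stabilises telomerase RNA. The Nhp2 level was 6.91 at 0 h and 8.58 at 24 h in the pair-fed untreated pool, 6.96 and 8.70 in the pair-fed AM21 pool, 7.43 and 8.45 in the ethanol-fed untreated pool, and 7.24 and 8.39 in the ethanol-fed AM21 pool. All 4 arrays at 24 h lay above all 4 at 0 h, and the ethanol-fed pools started higher and ended lower than the pair-fed pools. Its change was 1.40 ± 0.14 log2 units (SE, 4 pools), or 2.63-fold, with an adjusted p of 0.00192 in limma, and no other member had a larger estimate. The Gar1 level was 5.92 and 6.77 in the pair-fed untreated pool, 6.09 and 6.75 in the pair-fed AM21 pool, 5.87 and 6.50 in the ethanol-fed untreated pool, and 5.87 and 6.47 in the ethanol-fed AM21 pool. The times did not overlap, and Gar1 rose by 0.69 ± 0.087 log2 units (limma adjusted p 0.00305). The Nop10 level was 5.24 and 5.31, 5.23 and 5.18, 5.18 and 5.65, and 5.29 and 5.27 at 0 h and 24 h in the same order of pools. Nop10 was high only in the ethanol-fed untreated 24 h array, and its estimate of 0.12 ± 0.11 did not pass (limma adjusted p 0.479). Members of 1 particle thus had estimates from 0.12 to 1.40, and Dkc1 itself was not measured here.

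The C/D snoRNP carries the methyltransferase fibrillarin (Fbl) on a scaffold of Nop56 and Nop58. The Nop58 level was 6.81 at 0 h and 8.31 at 24 h in the pair-fed untreated pool, 7.42 and 8.41 in the pair-fed AM21 pool, 6.97 and 8.04 in the ethanol-fed untreated pool, and 6.71 and 7.87 in the ethanol-fed AM21 pool. The lowest 24 h array exceeded the highest 0 h array, and the change was 1.18 ± 0.11 log2 units, or 2.26-fold (limma adjusted p 0.00166). The Nop56 level was 7.24 and 8.49, 7.49 and 8.75, 7.38 and 8.38, and 7.17 and 8.20 in the same order of pools. Its rise lay between 1.00 and 1.26 in each pool, and the estimate of 1.14 ± 0.091 had the smallest adjusted p of all members (0.00135, limma). The Fbl level was 7.15 and 7.55 in the pair-fed untreated pool, 6.81 and 7.43 in the pair-fed AM21 pool, 6.82 and 7.53 in the ethanol-fed untreated pool, and 6.73 and 7.18 in the ethanol-fed AM21 pool. Fbl rose by 0.55 ± 0.093 (limma adjusted p 0.00757), with the pair-fed untreated pool already highest at 0 h and the ethanol-fed AM21 pool lowest at 24 h.

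**Figure D2:**
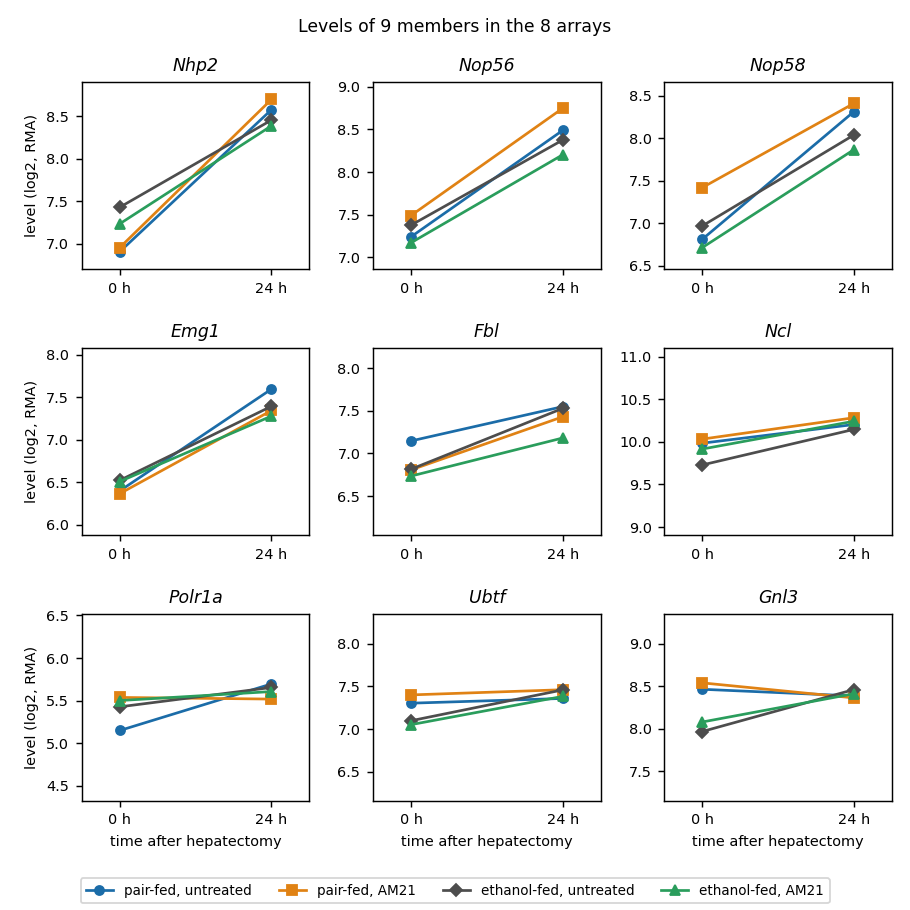
Level of 9 members (log2, RMA) at 0 h and 24 h, with a line joining the 2 arrays of each pool; every panel spans 2.2 log2 units, so slopes can be compared between panels. Nhp2, Nop56, Nop58 and Emg1 climb in all 4 pools, Ncl climbs slightly in each, and Polr1a, Ubtf and Gnl3 have times that overlap.

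RNA polymerase I transcribes the ribosomal DNA; Polr1a is its largest subunit, Polr1b its partner in the catalytic core and Polr1c a subunit shared with RNA polymerase III, while Ubtf (UBF) binds along the ribosomal DNA and Rrn3 (TIF-IA) brings the polymerase to its promoter. None of the 5 tested members passed at 24 h, and their estimates ran from -0.06 to 0.22 log2 units. The Polr1a level was 5.15 at 0 h and 5.70 at 24 h in the pair-fed untreated pool, 5.54 and 5.52 in the pair-fed AM21 pool, 5.43 and 5.65 in the ethanol-fed untreated pool, and 5.50 and 5.61 in the ethanol-fed AM21 pool. Most of its estimate of 0.22 ± 0.11 (limma adjusted p 0.202) came from the pair-fed untreated pool, where the 0 h array was the lowest of the 8. The other Polr1a probe set had a mean change of -0.09, so the 2 probe sets of this gene differed in sign. The Ubtf level was 7.30 and 7.36 in the pair-fed untreated pool, 7.40 and 7.46 in the pair-fed AM21 pool, 7.10 and 7.46 in the ethanol-fed untreated pool, and 7.05 and 7.38 in the ethanol-fed AM21 pool. Its 24 h arrays were close together (SD 0.05 at 24 h and 0.17 at 0 h, n = 4 arrays), and the estimate was 0.20 ± 0.096 (limma adjusted p 0.165). The Rrn3 level was 7.09 and 7.12, 7.40 and 7.17, 6.93 and 7.20, and 6.92 and 7.25 in the same order of pools. Every 24 h array of Rrn3 lay inside the range of its 0 h arrays, and the estimate was 0.10 ± 0.12 (limma adjusted p 0.57). The Polr1b level was 4.90 and 4.98, 5.42 and 4.88, 5.33 and 5.09, and 4.83 and 5.30 in that order. Polr1b differed in direction between pools, from -0.54 in the pair-fed AM21 pool to 0.47 in the ethanol-fed AM21 pool, and its estimate was -0.06 ± 0.17 (limma adjusted p 0.83). Polr1c had an estimate of 0.17 ± 0.086 (limma adjusted p 0.195).

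The abundant nucleolar proteins include nucleolin (Ncl), which binds nascent ribosomal RNA, the snoRNP chaperone Nolc1 (Nopp140), the RNA helicase Ddx21 and the GTP-binding protein nucleostemin (Gnl3). Of the 4 tested, Nolc1, Ddx21 and Ncl rose, and 1 was called without either ethanol-fed pool. All tested genes were called higher in 10.1% of cases without the untreated ethanol-fed pool and in 9.17% without the AM21 one. The Nolc1 level was 6.43 at 0 h and 7.64 at 24 h in the pair-fed untreated pool, 6.91 and 7.42 in the pair-fed AM21 pool, 6.78 and 7.37 in the ethanol-fed untreated pool, and 6.71 and 7.37 in the ethanol-fed AM21 pool. The pair-fed untreated pool combined the lowest 0 h array with the highest 24 h array, and the change was 0.74 ± 0.13 log2 units (limma adjusted p 0.00923). The Ddx21 level was 7.59 and 8.17, 8.10 and 8.33, 7.84 and 8.44, and 7.53 and 8.15 in the same order of pools. Ddx21 rose by 0.51 ± 0.10 (limma adjusted p 0.0126) and moved least in the pair-fed AM21 pool, whose 0 h array was the highest of its time. The Ncl level was 9.99 and 10.20, 10.03 and 10.28, 9.73 and 10.15, and 9.92 and 10.24 in that order. The times did not overlap, but the rise of 0.30 ± 0.084, or 1.23-fold, was close to the threshold (limma adjusted p 0.0372) and was not called in 6 of the 10 alternatives. The Gnl3 level was 8.47 and 8.39 in the pair-fed untreated pool, 8.54 and 8.36 in the pair-fed AM21 pool, 7.97 and 8.46 in the ethanol-fed untreated pool, and 8.08 and 8.41 in the ethanol-fed AM21 pool. Gnl3 started lower in both ethanol-fed pools and reached nearly the same level in all at 24 h (SD 0.04, against 0.28 at 0 h, n = 4 arrays), and its estimate over the pools was 0.14 ± 0.13 (limma adjusted p 0.465).

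The small subunit processome assembles on the U3 small nucleolar RNA. Heatr1, Wdr43 and Wdr75 join the precursor early, and Rrp9 is a U3 protein. Imp3, Imp4 and Mphosph10 form a module, and Emg1 methylates a pseudouridine of the 18S RNA. Of 11 tested members 4 rose: Emg1, Nop14, Heatr1 and Rrp9. The Emg1 level was 6.40 at 0 h and 7.60 at 24 h in the pair-fed untreated pool, 6.37 and 7.34 in the pair-fed AM21 pool, 6.52 and 7.39 in the ethanol-fed untreated pool, and 6.51 and 7.28 in the ethanol-fed AM21 pool. Its 0 h arrays were close together (SD 0.08, n = 4 arrays), and the change was 0.95 ± 0.10 log2 units, or 1.94-fold (limma adjusted p 0.00194). The Nop14 level was 5.88 and 6.73, 6.35 and 6.70, 6.49 and 6.77, and 6.15 and 6.64 in the same order of pools, giving a rise of 0.49 ± 0.12 (limma adjusted p 0.0218) with no overlap between times. The Mphosph10 level was 6.73 and 6.41, 6.52 and 6.23, 6.40 and 6.31, and 6.38 and 6.10 in that order. It was lower at 24 h in all 4 pools, with an estimate of -0.24 ± 0.086 that did not pass (limma adjusted p 0.0785). Wdr43 lay just outside the threshold, with an estimate of 0.31 ± 0.094 and a limma adjusted p of 0.0503, and Rrp9 just inside it, with 0.32 ± 0.093 and 0.0423. Heatr1 had 0.46 ± 0.13 (limma adjusted p 0.0398). The remaining members, Wdr75, Imp3, Imp4, Noc4l and Rcl1, had estimates between -0.08 and 0.27. Without the ethanol-fed AM21 pool 1 of the 11 was called, without the ethanol-fed untreated or the pair-fed untreated pool 2, and without a minimum level 1. The shares of all tested genes called higher in these 4 settings were 9.17%, 10.1%, 10.1% and 5.65%. Without the ethanol-fed AM21 pool the class was thus near the share of all genes.

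The late 40S factors work on the small subunit from the nucleolus to the cytoplasm, where the nuclease Nob1, with its partner Pno1, cuts the final end of the 18S RNA. None of the 4 tested passed. The Pno1 level was 5.90 at 0 h and 6.85 at 24 h in the pair-fed untreated pool, 6.33 and 6.65 in the pair-fed AM21 pool, 6.37 and 6.49 in the ethanol-fed untreated pool, and 6.09 and 6.45 in the ethanol-fed AM21 pool. Although the times did not overlap, the pools differed in size from 0.11 to 0.95, and the estimate was 0.44 ± 0.14 (limma adjusted p 0.0661). The Ltv1 level was 5.76 and 6.14, 5.96 and 5.91, 5.91 and 6.17, and 5.76 and 6.08 in the same order, with an estimate of 0.23 ± 0.10 (limma adjusted p 0.136). The Nob1 level was 6.23 and 6.11, 6.37 and 6.10, 6.41 and 6.40, and 6.39 and 6.12. Nob1 was lower or level at 24 h in each pool (estimate -0.17 ± 0.089, limma adjusted p 0.211), and Tsr1, a factor that resembles a translation GTPase, had 0.17 ± 0.097 (limma adjusted p 0.224).

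The 60S factors include the Bop1, Pes1 and Wdr12 complex, the stalk assembly factor Mrto4 and the RNA methyltransferase Nop2. Of 13 tested members 6 rose: Mrto4, Nop16, Nop2, Noc2l, Wdr12 and Bop1. The Mrto4 level was 6.99 at 0 h and 7.62 at 24 h in the pair-fed untreated pool, 6.96 and 7.75 in the pair-fed AM21 pool, 6.84 and 7.49 in the ethanol-fed untreated pool, and 6.93 and 7.57 in the ethanol-fed AM21 pool. Its change lay between 0.63 and 0.78 in every pool, and the estimate was 0.68 ± 0.082 log2 units (limma adjusted p 0.00258). The Nop16 level was 7.28 and 7.72, 7.13 and 7.22, 7.20 and 7.79, and 6.89 and 7.84 in the same order of pools. Nop16 rose by 0.52 ± 0.14 (limma adjusted p 0.0363) but from 0.09 to 0.94 between pools, and the pair-fed AM21 24 h array lay inside the range of the 0 h arrays. The Pes1 level was 6.48 and 6.51, 6.80 and 6.47, 6.38 and 6.66, and 6.52 and 6.49 in that order. Within the 1 complex, Wdr12 rose by 0.41 ± 0.12 (limma adjusted p 0.0455) and Bop1 by 0.34 ± 0.093 (limma adjusted p 0.0348), while Pes1 had an estimate of -0.01 ± 0.11 (limma adjusted p 0.95). Nop2 rose by 0.46 ± 0.085 (limma adjusted p 0.00963) and Noc2l by 0.42 ± 0.092 (limma adjusted p 0.0179). The other 7 members, Ppan, Noc3l, Rrs1, Nle1, Nip7, Wdr74 and Pes1, had estimates between -0.01 and 0.32. The class count was 2 without either ethanol-fed pool, 3 without the pair-fed untreated pool and 2 without a minimum level. Of all tested genes, 10.1% were called higher without the ethanol-fed untreated pool and 9.17% without the ethanol-fed AM21 pool. That share was 10.1% without the pair-fed untreated pool and 5.65% without a minimum level.

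The same comparison was made for related genes from lists fixed by name. Of 94 other ribosome biogenesis factors 21 rose (22.3%, against 15.3% of all tested genes) and 1 fell, with a median change of 0.19. The count of 21 became 11 without the pair-fed untreated pool and 20 without the pair-fed AM21 pool (10.1% and 11% of all tested genes). It was 13 without the ethanol-fed untreated pool and 9 without the ethanol-fed AM21 pool (10.1% and 9.17% of all tested genes). The counts of 11 and 9 of 94 were thus near the shares of all genes. Without a minimum level 11 of 101 were called (5.65% of all genes), and with a minimum of 6, 11 of 59 (17% of all genes). The count of 11 of 59 was also near the share of all genes. The largest rises on that list were those of Rbmx2 (1.06 ± 0.14, limma adjusted p 0.00347) and the nucleolar protein gene Rrp1b (0.71 ± 0.11, limma adjusted p 0.00577). Rbmx2 was listed by name alone, and a role of its product in ribosome biogenesis was not established here. The gene that fell was Nop53, which encodes a late 60S factor (-0.40 ± 0.099, limma adjusted p 0.0269). Of the 4 fits that left out a pool, only the one without ethanol-fed untreated rats called Nop53, and it was not called without a minimum level. Of 12 other RNA polymerase I subunits and factors 1 rose, Taf1d, a subunit of the promoter selectivity factor (0.54 ± 0.13, limma adjusted p 0.0217), and it was not called without either ethanol-fed pool. The RNA exosome, which trims precursor RNA, had 6 of 12 genes higher, led by Exosc2 (0.72 ± 0.13) and Exosc9 (0.63 ± 0.10, limma adjusted p 0.00896 and 0.00632), and 3 when the pair-fed untreated, the pair-fed AM21 or the ethanol-fed AM21 pool was left out. Of 24 RNA polymerase II and III subunits and regulators 5 rose and 2 fell: the largest rises were Polr3g (0.84 ± 0.23) and Polr3d (0.54 ± 0.11), and those that fell were Maf1, the repressor of RNA polymerase III (-0.44 ± 0.088), and Polr3gl, the paralogue of Polr3g (-0.38 ± 0.092, limma adjusted p 0.0379, 0.0133, 0.0127 and 0.0246 in turn). The shares of this list were 20.8% higher and 8.33% lower, against 15.3% and 12.8% of all tested genes. With a pool left out 1 to 3 of these 24 were called higher and 1 lower. Those fits called 9.17% to 11% of all tested genes higher and 7.7% to 9.55% lower. The counts with a pool left out were thus near or below the shares of all genes.

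Cytosolic ribosomal protein genes, the other building blocks of the ribosome, had 25 of 51 tested members higher (49%) and 0 lower, with a median change of 0.30 log2 units, the same to 2 decimals as that of the biogenesis factors. Rps16 (1.07 ± 0.20, limma adjusted p 0.0104) and Rps24 (0.70 ± 0.092, limma adjusted p 0.00344) had the largest rises; ribosomal protein genes have many near-identical copies, so their probe sets may catch more than 1 gene. The count was 14 when the pair-fed AM21 pool was dropped, 9 or 10 when the untreated or the AM21 ethanol-fed pool was dropped, and 12 without a minimum level. Of 66 mitochondrial ribosomal protein genes 15 rose (22.7%) and 0 fell, led by Mrpl49 (0.78 ± 0.14, limma adjusted p 0.00958) and Mrps27 (0.71 ± 0.16, limma adjusted p 0.0184). With a pool left out the count was 5 to 8. Fits with a pool left out called 9.17% to 11% of all tested genes higher, and the main fit 15.3%.

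**Figure D3:**
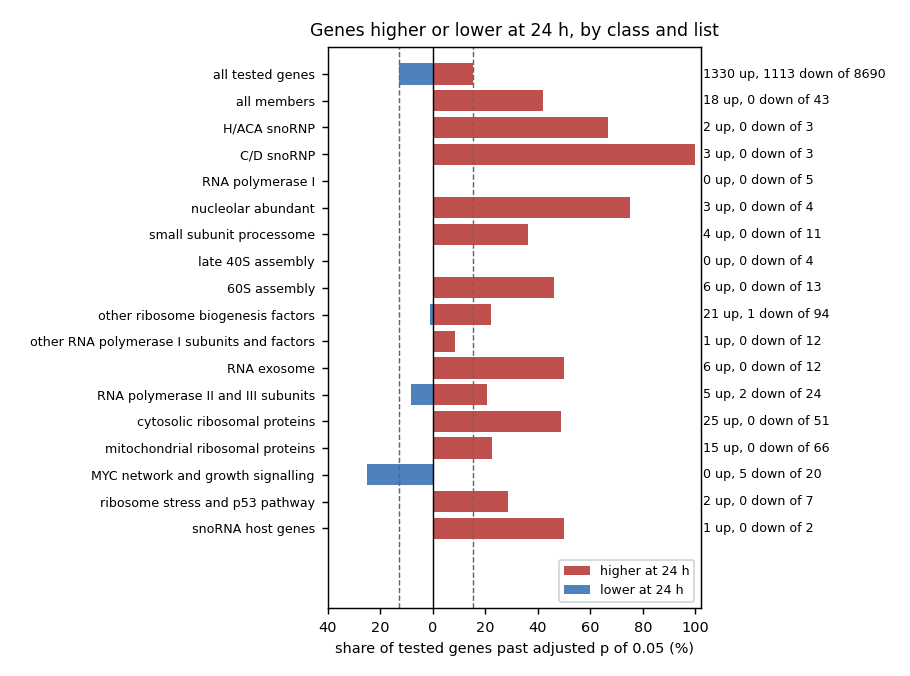
Share of the tested genes of each class and list that were higher (red, to the right) or lower (blue, to the left) at 24 h at an adjusted p under 0.05, with counts at the right edge; dashed lines mark the shares of all tested genes, 15.3% higher and 12.8% lower. Most classes and the cytosolic ribosomal proteins exceed the dashed line, while RNA polymerase I and late 40S assembly have no bar.

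Myc, whose product activates many ribosome biogenesis genes, had no call at 24 h: its level was 7.24 and 7.34 in the pair-fed untreated pool, 6.84 and 6.20 in the pair-fed AM21 pool, 7.06 and 6.93 in the ethanol-fed untreated pool, and 6.27 and 6.91 in the ethanol-fed AM21 pool. The pools went in different directions and the estimate was -0.01 ± 0.20 log2 units (limma adjusted p 0.979). Of 20 tested genes of the MYC network and growth signalling 0 rose and 5 fell, the largest falls being those of Sesn1, an inhibitor of the growth kinase mTORC1 (-0.92 ± 0.17, limma adjusted p 0.00958), and Pdcd4, an inhibitor of translation initiation (-0.83 ± 0.096, limma adjusted p 0.00235). The 5 falls were 25% of the list, against 12.8% of all tested genes called lower. They became 3 without the pair-fed untreated pool and 2 without either ethanol-fed pool. Of all tested genes, 9.55% were called lower without the pair-fed untreated pool. That share was 7.88% without the ethanol-fed untreated pool and 7.7% without the ethanol-fed AM21 pool, so the count of 2 of 20 was near it. Of the 7 tested genes on the list for ribosome stress and the p53 pathway, Ccng1 (1.07 ± 0.19, limma adjusted p 0.00969) and Mdm2 (0.76 ± 0.11, limma adjusted p 0.00495) rose. Both calls were made with each pool left out. The largest estimate on that list, 1.39, was not called. These are genes of the p53 pathway, and ribosome stress itself was not measured. Of 2 tested host genes of small nucleolar RNAs Snhg4 rose (0.41 ± 0.095, limma adjusted p 0.021), and it was not called without the pair-fed AM21 pool or without either ethanol-fed pool.

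The changes of the members were also read pool by pool, with no test. The median change of the 43 members was 0.38 log2 units in the pair-fed untreated pool, 0.093 in the pair-fed AM21 pool, 0.42 in the ethanol-fed untreated pool and 0.36 in the ethanol-fed AM21 pool. The corresponding medians of all tested genes were 0.074, -0.055, 0.010 and 0.024, and the shares of members that were higher at 24 h were 93%, 60.5%, 83.7% and 83.7%. The pair-fed AM21 pool had the smallest of the 4 changes for 26 of 43 members (60.5%) and the largest for 3. Among all tested genes that pool had the smallest change for 37.1% and the largest for 18.2%. In its 0 h array the members stood high: it was the highest of the 4 arrays at 0 h for 26 of 43 members (60.5%), against 25% of all tested genes and 33% of the other ribosome biogenesis factors. At the other end, the ethanol-fed AM21 0 h array was the highest for 1 member (2.33%, against 19.3% of all tested genes) and the lowest for 18 (41.9%, against 26.9% of all tested genes and 51.1% of the other ribosome biogenesis factors). At 24 h the arrays were more alike, since 32 of 43 members (74.4%) had a larger SD between arrays at 0 h than at 24 h, against 57% of all tested genes, and their median SD was 0.18 log2 units at 0 h and 0.12 at 24 h. The median change of the dividing cell markers was 3.30, 4.18, 2.06 and 2.72 in the same order of pools, so the pool with the largest marker change had the smallest member change; the part of cell division in the members' values was not tested.

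The series sets chronic ethanol feeding against pair feeding. No member passed the test of diet over both times: 0 of 43 were higher and 0 lower in ethanol-fed than in pair-fed livers (limma additive fit of diet, AM21 and time), while 0.38% of all tested genes were called higher and 0.0806% lower. At an unadjusted p of 0.05, 0 members were higher and 2 lower, and the smallest adjusted p was 0.301 in limma. Ethanol-fed livers were higher in 2 of the 12 markers of Kupffer cells and macrophages. Over all genes 33 were called higher with ethanol. That count was 0 without the pair-fed untreated 24 h array, 0 with the 24 h arrays alone and 475 when pools entered as a random block. The correlation estimated for that block was -0.37. A negative value makes the standard errors of diet smaller, so the count of 475 is not stronger evidence than that of 33. The 3 members with the smallest p were Gar1 (-0.20 ± 0.083 log2 units, ethanol-fed minus pair-fed), Nop58 (-0.34 ± 0.14) and Polr1c (-0.18 ± 0.082), with limma adjusted p of 0.301, 0.311 and 0.35. The Polr1c level was 7.83 at 0 h and 7.88 at 24 h in the pair-fed untreated pool, 7.60 and 7.75 in the pair-fed AM21 pool, 7.55 and 7.70 in the ethanol-fed untreated pool, and 7.39 and 7.70 in the ethanol-fed AM21 pool. The ethanol-fed array was the lower one in all 4 pairs for Polr1c and Gar1, and in 3 of 4 for Nop58, whose exception was the untreated pair at 0 h.

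Over the members together, the diet difference was seen mainly in 1 of the 4 pairs of arrays. Between the AM21 arrays at 0 h, 38 of 43 members were lower in the ethanol-fed array, with a median of -0.22 log2 units, where all tested genes had a median of -0.014. The share higher in that array was 11.6% of members and 47.6% of all tested genes. Of the 94 other ribosome biogenesis factors 20 were higher in it, with a median of -0.15. Between the untreated arrays at 0 h, 20 members were higher and 23 lower in the ethanol-fed array (median -0.03), and at 24 h 22 were higher in the untreated pair (median 0.0019) and 19 in the AM21 pair (median -0.04). The pair that stands out consists of the pair-fed and the ethanol-fed AM21 0 h arrays, both described above, so it is not a separate observation.

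No member passed the test of AM21 either: 0 were higher and 0 lower, as for all tested genes, of which 0% were called in each direction although 538 had an unadjusted p under 0.05. The smallest p among members were those of Rrp9 (0.26 ± 0.091 log2 units, AM21 minus untreated), Fbl (-0.22 ± 0.086) and Mphosph10 (-0.16 ± 0.081), with limma adjusted p of 0.763, 0.789 and 0.854. The Rrp9 level was 4.93 at 0 h and 5.22 at 24 h in the pair-fed untreated pool, 5.35 and 5.49 in the pair-fed AM21 pool, 4.76 and 5.26 in the ethanol-fed untreated pool, and 5.01 and 5.38 in the ethanol-fed AM21 pool. The AM21 array was the higher one in all 4 pairs for Rrp9, and the lower one in all 4 for Fbl and Mphosph10. In single pairs, 33 of 43 members were higher with AM21 between the pair-fed arrays at 0 h (76.7%, median 0.17), against 55.1% of all tested genes (median 0.034). Of the 94 other ribosome biogenesis factors 52 were higher there, with a median of 0.047, near the values of all genes. The other pairs had 12, 13 and 11 members higher, with medians of -0.08 in ethanol-fed livers at 0 h, -0.06 in pair-fed livers at 24 h and -0.07 in ethanol-fed livers at 24 h. For all tested genes those medians were -0.05, -0.09 and -0.03, with 39.4%, 35.2% and 42.9% of genes higher. The members' median lay above that of all genes in pair-fed livers at 24 h and below it in the other 2 pairs. The arrays carry a probe set for the miR-21 precursor gene, which does not measure the mature microRNA that AM21 binds, so inhibition by AM21 cannot be checked from them.

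**Figure D4:**
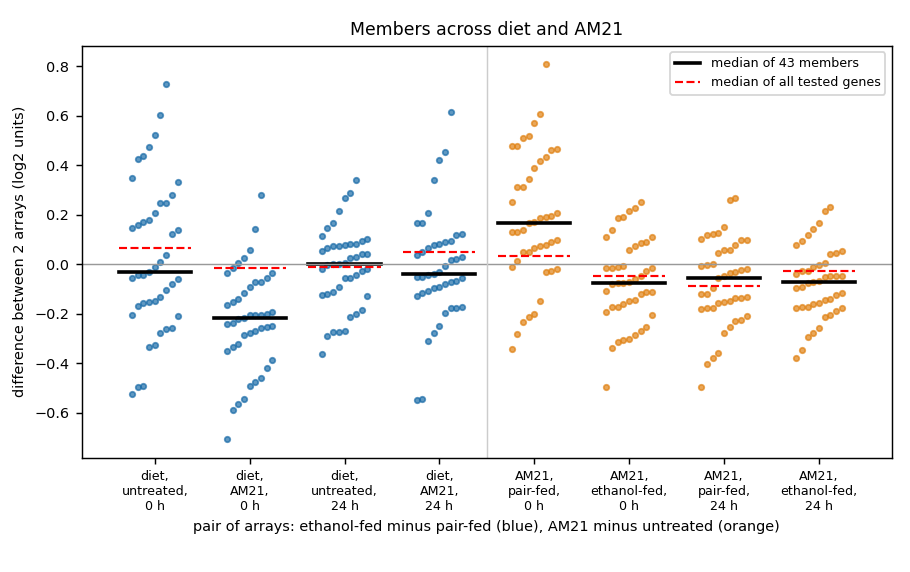
Difference of each tested member between 2 arrays (log2 units): ethanol-fed minus pair-fed on the left in blue, AM21 minus untreated on the right in orange, with the median of the 43 members (black) and of all tested genes (red, dashed). The members lie mostly below 0 in the diet pair under AM21 at 0 h (median -0.22) and mostly above 0 in the AM21 pair of pair-fed livers at 0 h (median 0.17), and both pairs use the pair-fed AM21 0 h array.

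The last comparisons asked whether the change after surgery differed with diet or with AM21. For diet, 0 of 43 members passed in either direction (limma with the pool as a block and both interactions in 1 fit, 1 residual degree of freedom), while 0.069% of all tested genes were called with a higher change and 0.46% with a lower change in ethanol-fed livers. Of the 11 dividing cell markers 6 were among the latter. The count over all genes depended on the settings. In the main fit 6 genes were called with a higher and 40 with a lower change. These counts were 0 and 0 with this interaction fitted alone or without a minimum level, and 0 and 16 with a minimum of 6. They were 7 and 40 with centred arrays, and 65 and 161 with a variance trend. With a pool left out, also with this interaction alone, the count differed with the pool. The 3 smallest p among members belonged to Ppan, Nhp2 and Gnl3, with limma adjusted p of 0.253, 0.277 and 0.351. The Ppan level was 5.77 at 0 h and 5.85 at 24 h in the pair-fed untreated pool, 5.56 and 5.47 in the pair-fed AM21 pool, 5.24 and 5.93 in the ethanol-fed untreated pool, and 5.07 and 5.67 in the ethanol-fed AM21 pool. Ppan, a 60S factor, thus had changes of 0.08 and -0.10 in pair-fed pools and 0.69 and 0.60 in ethanol-fed pools, a difference of 0.65 ± 0.20 log2 units. Gnl3 had the same arrangement, with changes of -0.08 and -0.18 against 0.49 and 0.33 (difference 0.54 ± 0.20). Nhp2 had the opposite one, with changes of 1.67 and 1.74 in pair-fed pools and 1.02 and 1.15 in ethanol-fed pools (difference -0.62 ± 0.20). In each of the 3 genes the changes in the pools of 1 diet lay apart from those of the other, which follows from choosing them by this test. Their levels at 24 h were closer together than those at 0 h.

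For AM21, 0 of 43 members passed and 0% of all tested genes were called in each direction (604 genes had an unadjusted p under 0.05). The 3 smallest p among members were those of Nip7 (-0.34 ± 0.20 log2 units, change with AM21 minus change without), Wdr12 (-0.36 ± 0.21) and Heatr1 (-0.39 ± 0.23), with limma adjusted p of 0.792, 0.798 and 0.80. The Heatr1 level was 5.76 at 0 h and 6.65 at 24 h in the pair-fed untreated pool, 6.24 and 6.37 in the pair-fed AM21 pool, 6.20 and 6.63 in the ethanol-fed untreated pool, and 6.09 and 6.49 in the ethanol-fed AM21 pool. The Wdr12 level was 7.20 and 7.77, 7.40 and 7.41, 7.05 and 7.65, and 6.98 and 7.44 in the same order of pools. For both, the pair-fed AM21 pool had the smallest change (0.13 and 0.01) and the highest 0 h level. The Nip7 level was 6.35 and 6.50, 6.81 and 6.55, 6.30 and 6.55, and 6.53 and 6.50. The difference between diets in the effect of AM21 on the change was not tested, because 1 array per group leaves no residual for it.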

How the data were processed

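Pooled rat liver RNA was hybridised to 8 Affymetrix arrays. The deposited values are log2 levels per probe set, made by the authors with RMA (Affymetrix Expression Console), as the submitters' processing notes name them; versions were not stated, and no detection calls were used here. The array annotation pairs 18511 of 36685 probe sets with 1 symbol, 575 with several and 17599 with none, and of genes with several probe sets the brightest was used.

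Genes with a mean level of at least 5 were tested in R 4.3.3 with limma 3.58.1 and Benjamini-Hochberg adjustment over all 8690, with a threshold of 0.05. The change at 24 h was fitted with the pool as a block (3 residual degrees of freedom), because both arrays of a pool list the same animal identifiers in the labels. Within-pool residual correlations of the additive fit were -0.63, -0.62, -0.53 and -0.45. With so few arrays, that fit makes such values negative by construction, even for unrelated arrays. They therefore cannot show whether the 2 arrays of a pool are alike. Diet and AM21 were fitted additively (4 residual degrees of freedom), and their interactions with time together (1). In the fits with a pool block the pools are the replicates, so p-values measure the spread between pools of rats, not between single rats. The fits of diet and AM21 had no block. They counted the 2 arrays of a pool as separate samples, although both come from the same rats. With the mean of the 2 arrays of each pool, 0 members were called for diet and 0 for AM21. The fits were tested on simulated data.

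The members and all lists were chosen with earlier results of these data known. Values in every array are given for the 2 largest and the smallest estimates of each class, for the 3 smallest p of each other test and for fixed genes of interest; on the other lists the 2 largest changes in each direction past the threshold are named, and for markers the 2 brightest. Alternatives changed the minimum level, the choice of probe set, the centring, the variance trend, the block, the model, and the pools or arrays included. The number of arrays limits the precision.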

Additional observations from a re-analysis of the deposited data

Results flagged for a closer look

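Signals outside the tested set that were higher at 24 h in all 4 pools are given as values, with no test and no explanation. Polr1e, a subunit of RNA polymerase I below the minimum level, had a mean change of 0.24 log2 units, from 0.18 to 0.34 between pools, at levels of 4.44 to 4.95 at 0 h and 4.78 to 5.13 at 24 h. The probe sets of 3 members that were not the brightest of their gene also moved up in every pool. The dimmer Nop56 probe set had a mean change of 1.09, from 0.25 in the ethanol-fed untreated pool to 1.64 in the pair-fed AM21 pool, against 1.14 for the brighter one. The dimmer Ddx21 probe set had 0.55, from 0.20 in the pair-fed AM21 pool to 1.04 in the pair-fed untreated pool, against 0.51. The dimmer Ncl probe set had 0.27, from 0.21 to 0.34, against 0.30. No group held enough arrays to look for a single array far from the others.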

How the results depend on the processing

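Of the 43 members, 18 were higher at 24 h. With a minimum level removed the count was 10 (5.65% of all genes higher, against 15.3%), with pools left out it ran from 9 to 17, and with a fit without the replicate block it was 19. The cause of the lower counts with a pool left out was not tested beyond their construction, which has fewer arrays, and the fit without a minimum tests more genes. None of the 18 called estimates, nor the 3 named for each other test, changed sign in the alternatives run; of the 18 calls 9 held in all 10 alternatives and 9 were lost in at least 1. The median change of the members kept its sign throughout and moved by less than the spread between pools. Of the 94 other ribosome biogenesis factors 21 were higher and 1 lower. The count higher was 11 of 101 without a minimum level (5.65% of all genes) and 11 of 59 with a minimum of 6 (17% of all genes, near the share of the list). With pools left out it ran from 9 to 20 of 94, while 9.17% to 11% of all tested genes were called higher. The count lower was 0 without a minimum level and from 0 to 1 with pools left out. Centring the arrays on their median shifted the calls over all genes from 15.3% higher and 12.8% lower to 13.4% and 16.3%. For diet, AM21 and both interactions 0 members were called in every alternative run, including the pool as a random replicate block; those tests rest on 1 to 4 residual degrees of freedom, so they bear little on stability. The alternatives for the related lists were chosen after seeing the data.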

Other observations

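Levels of cell type markers give the setting of the values above. The brightest hepatocyte markers, Alb and Ttr, had changes at 24 h of -0.05 ± 0.08 and -0.12 ± 0.08 log2 units. The brightest markers of dividing cells, Rrm2 and Pcna, rose by 3.50 ± 0.51 and 2.11 ± 0.18 (limma adjusted p 0.00451 and 0.00145), and Rrm2 at 0 h ranged from 5.85 in the pair-fed AM21 pool to 8.69 in the ethanol-fed untreated pool. S100a8, a neutrophil gene, rose by 3.09 ± 0.37 (limma adjusted p 0.00249), and 7 of 11 measured neutrophil and monocyte markers, like 8 of 11 lymphocyte markers, were under 5 log2 units in all 8 arrays.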
